A study of Mus musculus with 8 samples.

Results

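The interleukin 1 family and its receptors were followed in mouse kidneys as 10 genes chosen by name: the ligands Il1f6 (also written Il36a), Il1a, Il1b, Il18 and Il33, the antagonist Il1rn, and the receptor chains Il1r1, Il1rap, Il1rl1 and Il1rl2. Each of the 10 symbols matched 1 Ensembl gene among the 47643 in the count files. RNA from 8 whole kidneys was sequenced, 4 from wild type mice (WT) and 4 from mice labelled Six2-Cre;Cox10-fl/fl (conditional knockout, cKO), in which the Cre recombinase is driven by Six2, a gene of nephron progenitors, and both Cox10 alleles are floxed. Within each genotype replicates 1, 3 and 4 were 3 months old and replicate 2 was 2.5 months old. The labels give neither strain nor sex, and do not say whether the WT mice carried the Cre or the floxed alleles. The nephron epithelium descends from Six2-expressing cells, whereas collecting duct, vessels, stroma and blood cells do not, so whole kidney RNA mixes targeted with untargeted cells.

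Cytokines of the interleukin 1 family signal through pairs of receptor chains. IL-1α and IL-1β bind IL-1R1, IL-36 cytokines bind the chain encoded by Il1rl2, and IL-33 binds ST2, the product of Il1rl1; each of these then recruits the shared accessory chain encoded by Il1rap, and the adaptor MyD88 relays the signal to NF-kB. IL-1β and IL-18 are cut to their active forms by inflammasome caspases, IL-1α and IL-33 are held in the nucleus and released by damaged cells, and Il1rn encodes an antagonist that occupies IL-1R1 without signalling. In the kidney IL-36α is known from damaged tubular epithelium, IL-33 from stromal and endothelial cells, and IL-1β from infiltrating myeloid cells.

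Several members sit next to each other in the genome. On mm10 chromosome 1 the receptor genes lie on the plus strand in the order Il1r2, Il1r1 (40225080 to 40317257), Il1rl2 (40324610 to 40367562), Il1rl1 (40429570 to 40465415), Il18r1 and Il18rap, and only 136 bases separate Il1rl1 from Il18r1. On chromosome 2 Il1f6 (24215418 to 24225702) lies between the IL-36γ gene Il1f9 and the IL-36 receptor antagonist gene Il1f5, and Il1rn (24336853 to 24351494) closes that cluster. Il1a (129299610 to 129309972) and Il1b (129364570 to 129371139) lie elsewhere on chromosome 2 on the minus strand, Il18 (50554827 to 50581840) on chromosome 9, Il1rap (26581704 to 26730117) on chromosome 16 and Il33 (29925114 to 29960718) on chromosome 19. Annotated exons of Il1a, Il1b and Il1rap overlap those of Gm14023 (222 bases), Il1bos (25 bases) and Gm20319 (552 bases), all on the opposite strand. The strand setting used in counting is not given in the sources used here, so reads in these stretches cannot be assigned with certainty.

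The 250 bases before each annotated start were read from the RefSeq promoter table (GRCm38.p6, the build also called mm10), which holds 9 of the 10 members and not Il1f6. They are shown for the 4 members with an entry that were higher in cKO, at a start whose window holds a match, and bases covered by an annotated exon are left off. Capitals mark matches, on either strand, to the NF-kB consensus GGGRNNYYCC, to the AP-1 letters TGANTCA or to the TATA box letters TATAAA. Here R is A or G, Y is C or T and N is any base.
Il1rn, chr2:24336610-24336852, plus strand: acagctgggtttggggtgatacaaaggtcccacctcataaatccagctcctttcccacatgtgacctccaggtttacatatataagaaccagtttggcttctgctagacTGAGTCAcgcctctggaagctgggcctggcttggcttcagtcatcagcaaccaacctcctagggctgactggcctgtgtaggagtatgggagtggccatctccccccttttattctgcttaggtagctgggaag
Il33, chr19:29945540-29945789, plus strand: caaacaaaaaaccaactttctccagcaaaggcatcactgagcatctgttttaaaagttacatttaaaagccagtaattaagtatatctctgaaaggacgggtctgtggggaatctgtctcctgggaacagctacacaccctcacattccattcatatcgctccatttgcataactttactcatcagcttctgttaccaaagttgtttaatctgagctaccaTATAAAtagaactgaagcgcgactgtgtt
Il1r1, chr1:40266336-40266585, plus strand: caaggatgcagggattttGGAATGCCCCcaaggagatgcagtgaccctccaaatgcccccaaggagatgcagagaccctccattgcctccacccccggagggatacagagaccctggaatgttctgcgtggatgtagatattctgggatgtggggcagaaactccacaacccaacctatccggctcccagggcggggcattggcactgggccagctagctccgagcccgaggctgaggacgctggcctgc
Il1rl2, chr1:40324339-40324588, plus strand: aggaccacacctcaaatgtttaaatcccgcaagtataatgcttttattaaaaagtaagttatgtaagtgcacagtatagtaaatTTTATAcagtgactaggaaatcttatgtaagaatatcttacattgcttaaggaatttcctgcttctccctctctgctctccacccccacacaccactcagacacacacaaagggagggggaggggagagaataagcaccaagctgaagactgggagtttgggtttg
The capitals in Il1rn are an AP-1 match, those in Il33 and Il1rl2 TATA box matches and those in Il1r1 an NF-kB consensus match. Over all 32851 promoter windows of this length in the table, 7.25% hold the NF-kB consensus, 6.75% the AP-1 letters and 12.4% the TATA box letters. The windows shown were picked because they hold a match, so they cannot be weighed against these shares. The windows at the other annotated starts of Il1r1 and Il1rn hold none of the matches. In Il1r1 and Il1rl2 the match lies on the minus strand, from position -232 to -223 and from -166 to -161. Il33 has a second annotated start whose window also holds a TATA box match, farther from that start, and the window shown is the one with the nearer match. A match is a run of letters and was not tied to any measurement of binding.

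Library totals ran from 9454830 to 15838026 counts. WT 2, WT 3, WT 4 and cKO 3 held at least 829 counts of Y-linked genes and the other libraries held 0, so sex is uneven between the groups. For the members and the named pathway genes, calls that did not hold in a fit within 1 kind of library are pointed out. Such a fit leaves 1 WT library without Y-linked reads (WT 1) and 1 cKO library with them (cKO 3), each assumed to vary like the other libraries. Cox10, which encodes an enzyme of heme A synthesis, stood at 21.0 ± 2.47 in WT kidneys and at 18.4 ± 5.12 in cKO kidneys (SD, n = 4), in counts scaled to the library's total and a trimmed-mean factor (CPM; edgeR adjusted p = 0.619). The part of Cox10 that is floxed is not given, so this whole-gene level does not check the labels. Of 13829 tested genes, 16.7% passed an edgeR adjusted p of 0.05, 9.57% higher and 7.14% lower in cKO. Scaling by library size alone shifted the median fold by 0.159 on the log2 scale and gave 1866 genes higher and 550 lower, against 1323 and 987.

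Of the 10 members, 8 had enough counts to be tested, and 5 of these rose in cKO kidneys: Il1f6, Il1rn, Il33, Il1r1 and Il1rl2. The other 3, Il1b, Il18 and Il1rap, did not pass, and Il1a and Il1rl1 were below the count filter. No tested member was lower, and at an unadjusted p under 0.05 edgeR and DESeq2 also gave 0 lower. They gave 6 of 8 and 7 of 10 members higher, since DESeq2 took in Il1a and Il1rl1. Among all tested genes 9.57% were higher at an edgeR adjusted p under 0.05, the rule that gave the 5 members. No share over all genes is given for the unadjusted p. With a sex term 3 members rose, Il1f6, Il1rn and Il33, beside 5.17% of all tested genes. The median log2 fold change was 1.47 over the 8 tested members and -0.01 over all tested genes. Of the 8, Il1f6, Il1b, Il1rn and Il1rl2 reached the filter only through the cKO libraries, so neither the count nor the median describes the 10 as a whole. The 10 were also chosen with earlier results of these data known, so their direction is not independent support. In bulk kidney RNA a change in the number of cells of a type and a change in RNA per cell cannot be told apart, here or in what follows.

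**Figure D1:**
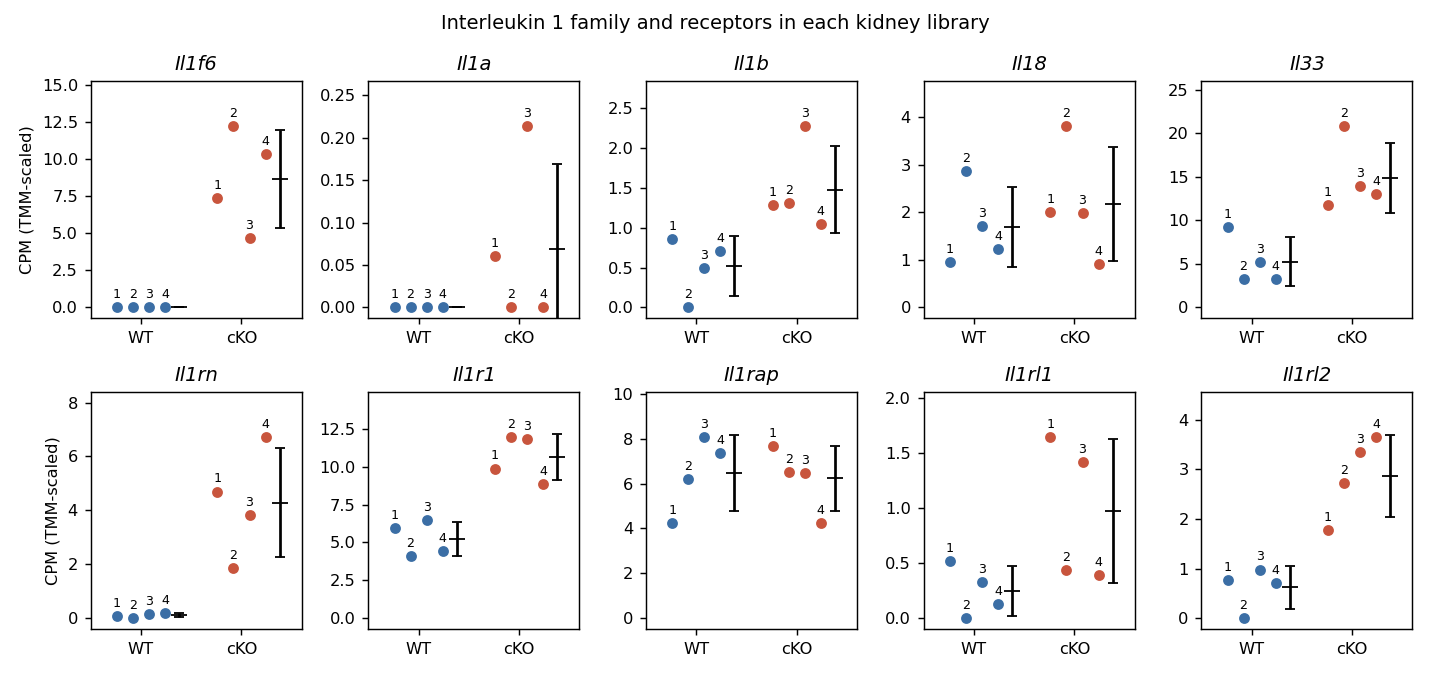
Level of each member in each library, in scaled counts (CPM) on a linear axis that differs between panels; points are libraries numbered by replicate, and the bar beside each group is the mean ± SD (n = 4). Il1f6 is at 0 in all 4 WT libraries and between 4.70 and 12.2 in the cKO libraries, and the groups do not overlap for Il1f6, Il1rn, Il33, Il1r1, Il1rl2 and Il1b.

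Among the ligands the largest difference was that of Il1f6 (ENSMUSG00000026984), which encodes IL-36α. No WT library held a count of it (0 in each of the 4), whereas cKO 1 to cKO 4 held 121, 112, 66 and 158 counts. The cKO levels were 7.39, 12.2, 4.70 and 10.3 CPM, with a mean of 8.65 ± 3.29 (SD, n = 4), so the groups did not overlap and the lowest cKO library was cKO 3. Against a floor of 3 counts over the WT group, or 0.0625 CPM, the level from the pooled cKO counts was at least 133-fold higher (edgeR adjusted p = 0.000195). The call held under each alternative run, with a highest edgeR adjusted p of 0.0147, in the libraries that lack Y-linked reads. Leaving out 1 library at a time gave adjusted p values up to 0.00166.

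Il33 (ENSMUSG00000024810), which encodes a nuclear cytokine released on cell damage, was present in both genotypes. WT 1 to WT 4 had 9.23, 3.21, 5.23 and 3.23 CPM, and cKO 1 to cKO 4 had 11.8, 20.8, 13.9 and 13.1 CPM. WT 1 was the highest WT library and still lay below every cKO library. The mean went from 5.23 ± 2.83 to 14.9 ± 4.03 CPM (SD, n = 4). On the log2 scale this was a rise of 1.50 ± 0.36 (SE; edgeR adjusted p = 0.0156). The call was lost without the 2.5-month pair, at 1.14 (adjusted p = 0.0801), and without WT 4 and cKO 4, at 1.35 (adjusted p = 0.108). Within the libraries without Y-linked reads, where WT 1 is the only WT library, the log2 fold change was 0.71 (adjusted p = 0.674). Where Y-linked reads were present and cKO 3 is the only cKO library it was 1.84 (adjusted p = 0.0474).

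Il1b (ENSMUSG00000027398), the inflammasome-processed cytokine of myeloid cells, was low throughout. WT 1 to WT 4 held 10, 0, 6 and 11 counts, and cKO 1 to cKO 4 held 21, 12, 32 and 16. In CPM the WT libraries lay between 0 and 0.863 and the cKO libraries between 1.04 and 2.28, so the groups did not overlap. Groups also did not overlap for 22.6% of all tested genes, and for 13.1% every cKO library was the higher. The fitted log2 fold change, 1.44 (95% interval 0.13 to 2.75), did not pass (edgeR adjusted p = 0.120). Adjusted p values over the alternatives ran from 0.0778 to 0.928. In the libraries without and with Y-linked reads the log2 fold changes of Il1b were 0.48 and 2.36 (adjusted p = 0.928 and 0.1995). Il1a, which encodes the IL-1α precursor, was barely detected. Every WT library was at 0 counts, which allows up to 0.0625 CPM over the group, and cKO 1 to cKO 4 held 1, 0, 3 and 0 counts. A difference in Il1a was not detectable at this depth.

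Il18 (ENSMUSG00000039217), a cytokine made constitutively by epithelia and macrophages, was at 0.949, 2.87, 1.72 and 1.23 CPM in the WT libraries 1 to 4, with 2.01, 3.81, 1.99 and 0.914 CPM in the cKO libraries 1 to 4. The 2.5-month library was the highest of each genotype, and the groups overlapped. The difference on the log2 scale was 0.37 (95% interval -0.70 to 1.43, edgeR adjusted p = 0.631), and it was -0.020 without cKO 2. In the libraries without and with Y-linked reads it was 1.20 and 0.065 (adjusted p = 0.718 and 0.982).

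The antagonist Il1rn (ENSMUSG00000026981) rose most among the members detected in WT. WT 1 to WT 4 held 1, 0, 2 and 3 counts, and cKO 1 to cKO 4 held 77, 17, 54 and 103. The levels went from 0.111 ± 0.0867 to 4.28 ± 2.02 CPM (SD, n = 4), with cKO libraries between 1.85 and 6.72, all above the WT libraries. On the log2 scale it rose by 5.03 ± 0.61 (SE; edgeR adjusted p = 0.000500). It kept its call in each alternative except within the libraries without Y-linked reads, where the log2 fold change was 5.54 and the adjusted p 0.0983. Counts of Il1rn were fewer than those of Il1b in the 3 WT libraries that held either, at 1 beside 10, 2 beside 6 and 3 beside 11 in WT 1, WT 3 and WT 4. In cKO 1 to cKO 4 they were more numerous, with ratios of Il1rn to Il1b of 3.67, 1.42, 1.69 and 6.44. Summed over a group, Il1rn had 6 counts beside 27 of Il1b in WT and 251 beside 81 in cKO. These ratios compare reads, not molecules, since the transcripts differ in length, and the gene total does not separate the secreted from the intracellular forms of the antagonist.

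Among the receptors, Il1r1 (ENSMUSG00000026072), the signalling receptor of IL-1, was at 5.95, 4.13, 6.45 and 4.46 CPM in the WT libraries 1 to 4, with 9.89, 12.0, 11.8 and 8.88 CPM in the cKO libraries 1 to 4. The groups did not overlap. The mean went from 5.25 ± 1.13 to 10.6 ± 1.51 CPM (SD, n = 4), which is 1.01 ± 0.24 on the log2 scale (SE; edgeR adjusted p = 0.0166). A sex term left the size at 1.01 and gave an adjusted p of 0.0613. Without WT 4, without the 2.5-month pair, and without WT 4 and cKO 4, the log2 fold changes were 0.95, 0.86 and 0.99, and the adjusted p values were 0.0632, 0.0627 and 0.104. Within the libraries without and with Y-linked reads the fold changes were 0.78 and 1.23, with adjusted p values of 0.597 and 0.152.

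Il1rl2 (ENSMUSG00000070942), the chain that binds IL-36α, held 9, 0, 12 and 11 counts in the WT libraries 1 to 4, beside 29, 25, 47 and 56 in the cKO libraries 1 to 4. Every cKO library lay above every WT library, and the mean went from 0.617 ± 0.427 to 2.87 ± 0.831 CPM (SD, n = 4). It rose by 2.15 ± 0.57 on the log2 scale (SE; edgeR adjusted p = 0.0264). With a sex term it was 2.16 (adjusted p = 0.0736). Leaving out WT 4, cKO 2, cKO 3 or cKO 4 each ended the call, with a log2 fold change between 1.79 and 2.42 and an adjusted p of up to 0.0863 over all single libraries left out, and without WT 4 and cKO 4 the adjusted p was 0.171. Within the libraries without and with Y-linked reads the values were 1.79 and 2.46 (adjusted p = 0.610 and 0.185). Both the ligand Il1f6 and its receptor chain were thus higher in cKO, the receptor with a call that 1 library could end.

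Il1rap (ENSMUSG00000022514), the accessory chain shared by the IL-1, IL-33 and IL-36 receptors, had 6.47 ± 1.69 CPM in WT and 6.23 ± 1.44 in cKO (SD, n = 4). The libraries ran from 4.23 to 8.08 in WT and from 4.24 to 7.69 in cKO, an almost complete overlap. The difference on the log2 scale was -0.06 (95% interval -0.68 to 0.57, edgeR adjusted p = 0.909), and its sign changed with the scaling. Il1rl1, which encodes the IL-33 receptor ST2, was below the count filter, at 6, 0, 4 and 2 counts in the WT libraries 1 to 4, beside 27, 4, 20 and 6 in the cKO libraries 1 to 4. cKO 1 and cKO 3 stood above all WT libraries, and cKO 2 and cKO 4, at 0.435 and 0.392 CPM, lay below WT 1 at 0.518. With no count filter the log2 fold change of Il1rl1 was 1.95 (edgeR adjusted p = 0.102), and DESeq2 gave 1.99 (adjusted p = 0.0873).

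**Figure D2:**
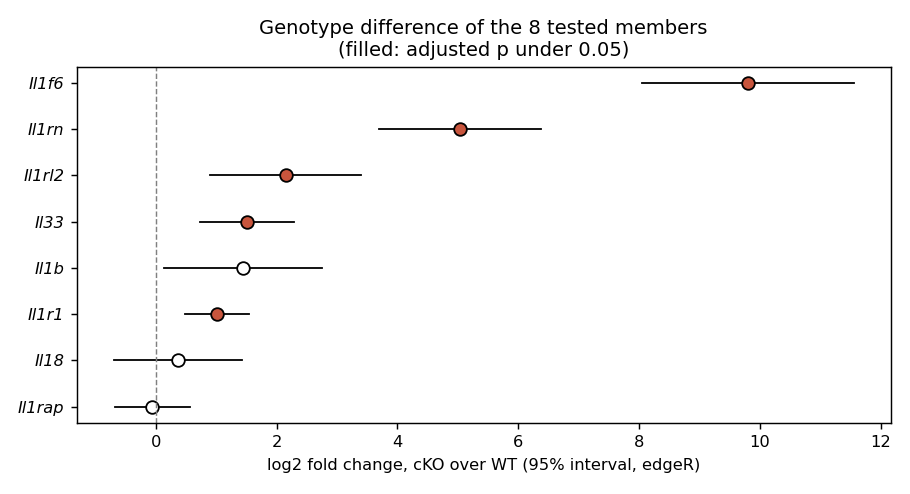
Log2 fold change of cKO over WT for the 8 tested members, with 95% intervals from edgeR; filled points have an adjusted p under 0.05. The called members run from Il1r1 at 1.01 upward, the interval of Il1b ends just above 0, and the fitted value of Il1f6 depends on the prior count because all WT libraries are at 0.

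Levels of different genes were compared per kilobase of annotated exon. In WT kidneys Il33 (1.81 ± 0.981 CPM per kb; SD, n = 4) and Il18 (1.64 ± 0.822) stood highest, followed by Il1r1 (0.825 ± 0.177), Il1rap (0.570 ± 0.148) and Il1b (0.271 ± 0.197). Il33 was above Il18 in 2 of 4 WT libraries, and the ranges of each pair of neighbours in the WT order overlapped. In cKO kidneys Il1f6 went from the bottom to the top of the order, at 9.79 ± 3.73 CPM per kb (SD, n = 4). Il33 came next at 5.16 ± 1.40 CPM per kb and lay below Il1f6 in 4 of 4 libraries, although the ranges overlapped. Il18 (2.12 ± 1.16) and Il1r1 (1.67 ± 0.237) followed, with overlapping ranges, and the ranges of Il33 and Il18, of Il1r1 and Il1b, and of Il1rl2 and Il1rl1 did not overlap. Il1b and Il1rn had the same cKO level per kb within their spread, 0.775 ± 0.286 and 0.773 ± 0.365, each higher in 2 of 4 libraries. The binding chain Il1rl2, at 0.422 ± 0.122 CPM per kb in cKO, was below the accessory chain Il1rap at 0.549 ± 0.127 in 3 of 4 libraries. With the longest transcript in place of all exons, Il1rap (1.43 ± 0.373 CPM per kb) stood above Il1r1 (0.902 ± 0.194) in WT. By that length 7 of 10 members kept their place in the cKO order, and Il1rn, at 1.68 CPM per kb, moved above Il1rap and Il1b, at 1.38 and 1.09.

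**Figure D3:**
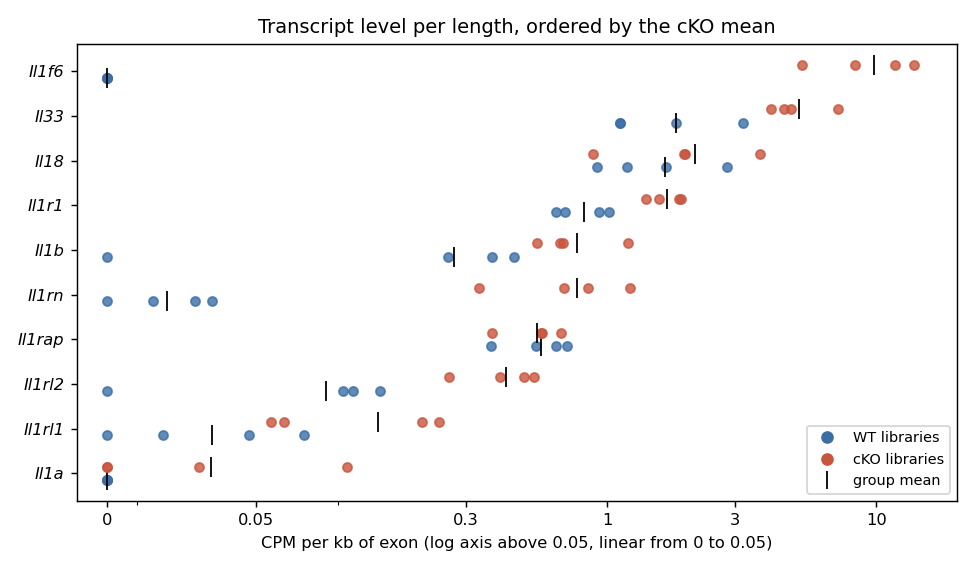
Level of each member in CPM per kilobase of annotated exon, on an axis that is logarithmic above 0.05 and linear below it; points are libraries and the vertical tick is the group mean. Il1f6 moves from 0 in WT to the highest cKO mean, 9.79, while Il1rap has overlapping WT and cKO points.

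The other genes of the family were read from 2 short lists. Il1f5, which encodes the IL-36 receptor antagonist and lies next to Il1f6, held 8, 6, 6 and 4 counts in the WT libraries 1 to 4, beside 2, 0, 5 and 0 in the cKO libraries 1 to 4, too few to test. The 2 neighbours on chromosome 2 thus went from 24 counts of Il1f5 and 0 of Il1f6 in WT to 7 and 457 in cKO. The other IL-36 agonist genes Il1f8 and Il1f9 held 1 and 2 counts in WT and 0 and 7 in cKO, and Il1f10 held 0 and 1. Il18bp, a soluble inhibitor of IL-18, did not pass (log2 fold change 0.32, edgeR adjusted p = 0.682).

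Both IL-18 receptor chains could be tested. Il18r1, the IL-18 binding chain, was at 0.518, 0.344, 1.39 and 0.647 CPM in the WT libraries 1 to 4, with 3.11, 9.14, 2.63 and 4.11 CPM in the cKO libraries 1 to 4. It rose by 2.66 ± 0.53 on the log2 scale (SE; edgeR adjusted p = 0.00715), with groups that did not overlap, and lost its call with a sex term (2.42, adjusted p = 0.0520) and without WT 4 and cKO 4 (2.64, adjusted p = 0.0631). It was also not called in the libraries without Y-linked reads (3.36, adjusted p = 0.172) or in those with them (1.69, adjusted p = 0.315). Its partner Il18rap had 0.684 ± 0.655 CPM in WT and 2.11 ± 0.999 in cKO (SD, n = 4) and did not pass (log2 fold change 1.69, edgeR adjusted p = 0.0830). It passed with library size scaling (adjusted p = 0.0490), limma-voom (0.0419), an age term (0.0178) and a replicate block (0.0357), without WT 2 (0.0207) and without the 2.5-month pair (0.0378), and its adjusted p with a sex term was 0.293. The decoy receptor Il1r2, which binds IL-1 without signalling, held 5, 3, 4 and 4 counts in the WT libraries 1 to 4, beside 13, 7, 9 and 12 in the cKO libraries 1 to 4, and was below the count filter. Sigirr, an inhibitory receptor of the family, was the most abundant of these genes, with 88.3 ± 16.1 CPM in WT and 80.6 ± 17.8 in cKO (SD, n = 4), and did not pass (edgeR adjusted p = 0.719). Il1rapl1 held 1 count in all and Il1rapl2 held 0.

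Of 68 other genes of the pathway, 44 were tested, of which 18 rose and 3 fell, beside 9.57% higher and 7.14% lower among all tested genes. Some of the 44 lay under the count cutoff in some WT libraries and entered the test through the cKO group. They were 2 of 3 receptors and decoys, 1 of 17 signalling genes, 2 of 9 processing genes and 9 of 14 targets. The counts of rises and falls thus do not describe the 68 as a whole. Receptor signalling genes made up 17 of the 44 and had a median log2 fold change of -0.20, with 1 rise and 2 falls. These 3 are 17.6% of the tested signalling genes, near the 16.7% called among all genes. The adaptor Myd88 rose from 14.3 ± 2.43 to 26.6 ± 4.59 CPM (SD, n = 4; edgeR adjusted p = 0.0157). Peli2, a ubiquitin ligase that acts on IRAK kinases, fell from 43.9 ± 8.02 to 25.4 ± 5.93 CPM (adjusted p = 0.0379), and the kinase gene Chuk fell from 152 ± 47.9 to 82.2 ± 12.5 CPM (adjusted p = 0.0365). None of these calls held with a sex term, where the adjusted p values of Myd88, Peli2 and Chuk were 0.0779, 0.192 and 0.314, and each was lost when single libraries were left out. In the libraries without and with Y-linked reads none of these 3 was called either, with adjusted p values from 0.159 for Myd88 to 0.956 for Chuk. With library size scaling Peli2 and Chuk lost their calls too (adjusted p = 0.122 and 0.0847), and the pathway count was 22 higher and 0 lower. The receptor-proximal kinases Irak1, Irak2, Irak3 and Irak4 and the ubiquitin ligase Traf6 did not pass (edgeR adjusted p between 0.133 and 0.431).

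Genes for processing and release had 9 tested members with a median log2 fold change of 1.07, of which 3 rose and 1 fell. Of the 9, 2 entered the test through the cKO group, so the median does not describe the whole list. Casp4, which encodes the inflammatory caspase that senses cytosolic lipopolysaccharide, rose from 0.864 ± 0.378 to 7.54 ± 3.39 CPM (SD, n = 4; edgeR adjusted p = 0.000953). Ctss, a lysosomal protease that can cut IL-36 cytokines, rose from 15.5 ± 8.81 to 71.5 ± 10.8 CPM (adjusted p = 0.00156). Both kept their calls with a sex term. Neither was called in the libraries without Y-linked reads, where the log2 fold changes of Casp4 and Ctss were 2.71 and 1.25 (adjusted p = 0.156 and 0.171), and both were in those with Y-linked reads, at 2.97 and 2.88 (adjusted p = 0.0256 and 0.000926). The inflammasome adaptor Pycard rose from 8.51 ± 5.24 to 26.1 ± 14.7 CPM (adjusted p = 0.0379), a call lost without WT 3, WT 4, cKO 2 or cKO 4 and with a sex term (adjusted p = 0.166). The inflammasome sensor Nlrc4 fell from 4.49 ± 2.27 to 1.53 ± 0.601 CPM (adjusted p = 0.0372). That call was lost with a sex term (adjusted p = 0.301), with library size scaling (0.0577), with limma-voom (0.0601), and without any 1 of WT 2, WT 3, WT 4, cKO 1, cKO 2 or cKO 4. Pycard and Nlrc4 were called in neither kind of library, with adjusted p values from 0.366 to 0.867. Casp1, the caspase that matures IL-1β and IL-18, had 0.584 ± 0.403 CPM in WT and 2.23 ± 1.02 in cKO and did not pass (edgeR adjusted p = 0.0596), and Nlrp3 was below the filter with 5 counts in WT and 30 in cKO. The neutrophil proteases that can activate IL-36 were nearly absent, with 0 counts of Ctsg in any library and 1 of Elane, although Prtn3 had 1 count in WT and 31 in cKO. Casp1, Nlrp3, Ctsg, Elane, Prtn3, the Irak kinases and Traf6 were chosen after their values were seen.

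Of 24 known targets of the pathway 14 were tested and 13 rose, with a median log2 fold change of 4.31, which is the same with the 3 genes at 0 in WT set to their bound. Of the 14, 9 lay under the count cutoff in 1 or more WT libraries and reached it in every cKO library, so they entered the test through the cKO group and neither the count nor the median describes the 24 as a whole. The other 5, Vcam1, Icam1, Lcn2, Ptges and Tnfaip3, reached the cutoff in every library, and each rose. Ptges and Tnfaip3, named after their values were seen, lost their calls with a sex term (adjusted p = 0.101 and 0.158) and in either kind of library. Both also lost them without the 2.5-month pair and without WT 3, WT 4 or cKO 4. Tnfaip3 kept its call without WT 2 but lost it without any other single library, and with no count filter (edgeR adjusted p = 0.0538). The list was written with some of these rises known, so its direction is not independent support. The adhesion molecules Vcam1 and Icam1 rose from 6.79 ± 2.60 to 80.8 ± 9.08 and from 13.0 ± 1.66 to 40.7 ± 2.48 CPM (SD, n = 4; edgeR adjusted p = 5.09e-05 and 0.000309). Lcn2, which encodes a siderophore-binding protein, rose from 2.97 ± 2.22 to 543 ± 375 CPM (adjusted p = 0.000118), and Lif, an IL-6 family cytokine, from 0.123 ± 0.0320 to 3.99 ± 1.69 CPM (adjusted p = 0.000194). In the libraries without Y-linked reads Icam1 was not called (log2 fold change 1.56, adjusted p = 0.101), while Vcam1, Lcn2 and Lif were called in both kinds. The target that did not pass was Zc3h12a, named after its values were seen, an RNase gene that restrains the response (log2 fold change -0.01, edgeR adjusted p = 0.994). Many of these genes also answer to other signals, and which signal acted was not tested.

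**Figure D4:**
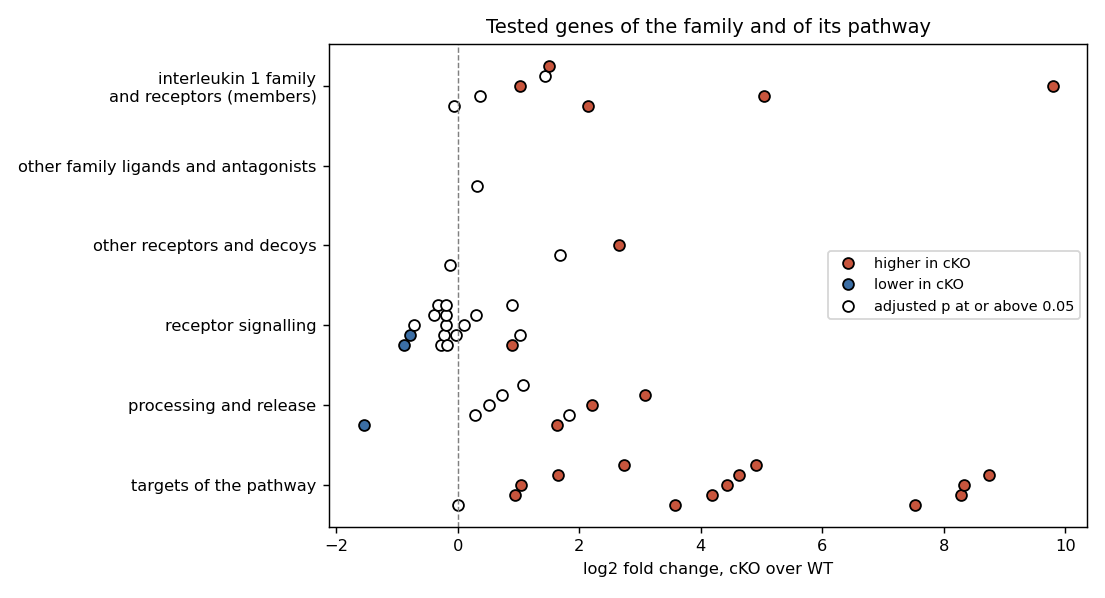
Log2 fold change of cKO over WT for each tested gene, with the members in the top row and the 5 pathway lists under it; the vertical offset within a row only separates points, and filled points passed an edgeR adjusted p of 0.05. The 17 signalling genes lie on both sides of 0, from -0.89 (Chuk) to 1.03 (Irak3), with 1 called rise and 2 called falls. Of the 14 targets 13 were called higher.

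Some marker genes of kidney and immune cell types also differed between WT and cKO, in either direction. Of 7 tested macrophage and monocyte markers 6 rose, and their summed level went from 55.1 to 85.3 CPM in WT libraries to 88.6 to 135 in cKO libraries. Csf1r, which makes up most of the WT sum, did not pass and went the other way, with 53.7 ± 12.2 CPM in WT and 34.5 ± 13.2 in cKO (SD, n = 4; edgeR adjusted p = 0.156), and Ly6c2, below the filter, had 83 counts in WT and 15 in cKO. Of the fibroblast markers 6 were called higher and 1, Pdgfra, lower, and their sum was 103 to 176 CPM in WT and 317 to 491 in cKO. Urothelial and stratified epithelial markers rose in 5 of 7 tested cases, with sums of 14.0 to 59.7 CPM in WT and 85.7 to 139 in cKO. The 3 principal cell markers rose (279.9 to 512 CPM in WT, 910 to 2479 in cKO), whereas endothelial markers were called lower in 2 of 6 cases (189 to 269 CPM in WT, 145 to 212 in cKO) and proximal tubule markers in 3 of 6 (5621 to 8792 CPM in WT, 1457 to 4583 in cKO). All 3 distal convoluted tubule markers fell (258 to 473 CPM in WT, 133 to 209 in cKO). Of the 3 loop of Henle markers 1 rose and the others did not pass (2586 to 4582 CPM in WT, 1276 to 2343 in cKO), and none of the 4 podocyte markers passed (151 to 287 CPM in WT, 83.6 to 233 in cKO). Of 5 tested T and NK cell markers 1 rose (5.11 to 9.92 CPM in WT, 7.90 to 17.6 in cKO). The 2 tested B and plasma cell markers did not pass, with sums of 5.05 to 40.5 CPM in WT and 3.27 to 36.9 in cKO. Neutrophil markers were near 0, with sums of 0.259 to 1.64 CPM in WT and 0.131 to 2.13 in cKO, 0 of 6 tested and Mpo at 0 in every library. The 6 mast cell and basophil markers, of which 1 could be tested and did not pass, had sums of 7.23 to 11.1 CPM in WT and 7.94 to 14.1 in cKO, nearly all from Kit, with Mcpt4 and Fcer1a at 0 in WT. Intercalated cell markers, a known site of Il18 in kidney, overlapped between groups (212 to 336 and 184 to 306 CPM), with 1 of 5 lower. Among all tested genes 9.57% were called higher and 7.14% lower. A single call in a short list, as for the T and NK cell and the intercalated cell markers, is therefore not read as a change of that cell type. Calls of marker genes are given only from the fit without a sex term, and whether they hold within 1 kind of library is not shown. The part of these cell types in the differences of the members was not tested.

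**Figure D5:**
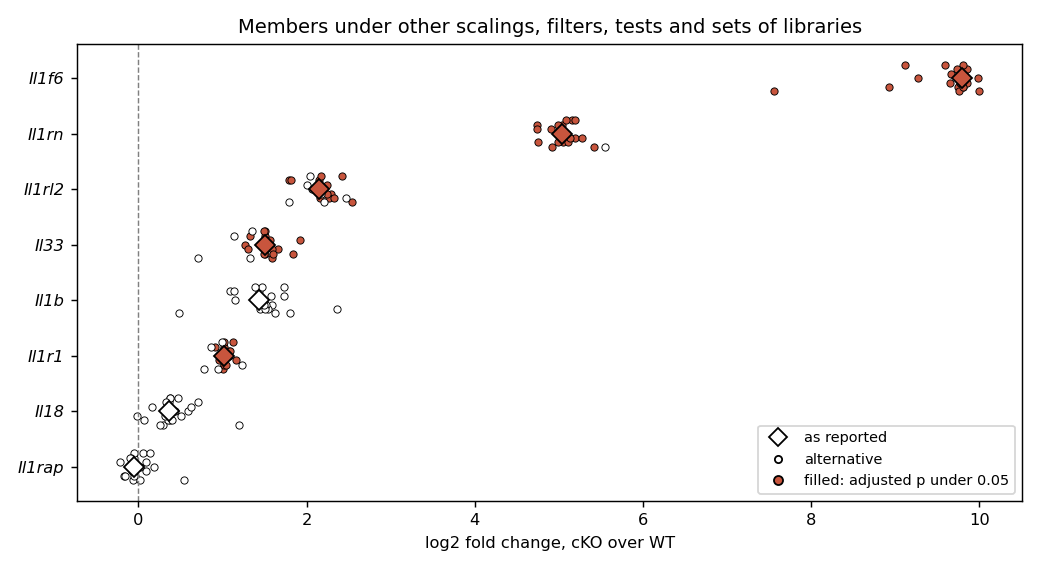
Log2 fold change of cKO over WT for the 8 tested members as reported (diamonds) and under 22 alternatives (circles); filled symbols have an adjusted p under 0.05. Il1f6 is filled throughout, Il1rn in 21 of 22, Il33 in 19, Il1r1 in 16 and Il1rl2 in 14, and the points of Il18 and Il1rap lie on both sides of 0.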

How the data were processed

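Whole kidneys of 8 mice were flash frozen, and stranded libraries were made from polyadenylated RNA, per the labels' protocols. The submitters' processing notes name STAR, RSEM and mm10; the sources used here give no version, annotation release or strand setting. The deposited values are expected counts per Ensembl gene, which the authors left unscaled; they were rounded to whole numbers. Symbols and exon lengths came from GENCODE and matched 47224 of 47643 identifiers.

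Genes passing filterByExpr (10 counts at the median depth, or 0.766 CPM, in 4 libraries) were scaled by TMM and compared with the edgeR quasi-likelihood test, two-sided, with Benjamini-Hochberg adjustment over 13829 genes and a threshold of 0.05. Tables were made in Python 3.11.15; R was version 4.3.3, DESeq2 version 1.42.0, edgeR version 4.0.16 and limma version 3.58.1. The steps were tested on simulated data. CPM are TMM-scaled, and fold changes are cKO over WT. The floor of 3 counts covers counting error only. Nothing in the labels says how the animals were related, so p-values measure the spread between these samples.

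The members and gene lists were chosen with earlier results of these data known. Named genes are the members, Cox10, the family genes of the first 2 lists and up to 4 called genes of each other list with the smallest adjusted p. A sex term used Y-linked counts of at least 10. Other alternatives were scalings, filters, DESeq2, limma-voom, an age term, a replicate block and leaving out libraries.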

Additional observations from a re-analysis of the deposited data

Results flagged for a closer look

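In 5 of 48 groups of 4 libraries with at least 10 counts, among the genes named, 1 library lay far from the other 3; chance alone gives about 1 in 20. WT 1 was the highest WT library for Il18bp, at 11.8 CPM against 2.07 to 2.78 in the others, and for Ctss, at 28.6 CPM against 10.4 to 12.3. cKO 2 was the highest cKO library for Il18rap (3.59 CPM), Casp4 (12.6 CPM) and Pycard (48.1 CPM), with the other 3 libraries at 1.49 to 1.83, 5.55 to 6.12 and 17.7 to 20.6 CPM. cKO 2 came from a 2.5-month-old mouse and was the shallowest library, and WT 1 was the only WT library without Y-linked reads. No library was set apart in this way for any member examined. With fewer than 10 counts, Il1a was examined in neither genotype, and Il1f6 and Il1rn were not examined in WT. No member passed a test for a difference between the genotype effects of the 2 ages, or of libraries with and without Y-linked reads. Each contrast rested on 1 library in some groups, so this does not show the effects to be alike. For Il1f6, at 0 in every WT library, such a difference could not be estimated. Il1b, Il1rn and Il1rl2 held 0 counts in WT 2, the only 2.5-month WT library, so the size of their age difference depends on the prior count. Among the tested members with counts in every library, the log2 effect at 2.5 months exceeded that at 3 months by 0.072 (Il18) to 1.55 (Il33). Those values also rest on 1 library of each genotype at 2.5 months.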

How the results depend on the processing

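The count of 5 called members was 5 with RLE, library size or upper quartile scaling, with other count filters, DESeq2, limma-voom or an age term. It was 3 with a sex term, 3 without the 2.5-month pair, 2 without WT 4 and cKO 4, 1 and 3 within the libraries that lack and that hold Y-linked reads, and 3 to 5 with single libraries left out, the lowest without WT 4. The pathway count of 21 became 13, 4 and 11 with a sex term and in the libraries that lack and that hold Y-linked reads, and 16 to 24 with single libraries left out. The count over all genes, 2310, became 941, 1397, 568, 120 and 480 with a sex term, without the 2.5-month pair, without WT 4 and cKO 4, and in the libraries that lack and that hold Y-linked reads, and 1155 to 3093 with single libraries left out. The sex term and the fits by Y-linked reads used all 8 libraries, whereas the others left libraries out. The cause of these changes in count was not tested. The sign of Il1rap turned with library size scaling (0.088), upper quartile scaling (0.016), a sex term (0.18), without WT 4 and cKO 4 (0.14), in the libraries that lack Y-linked reads (0.54) and without WT 3, WT 4 or cKO 4, and ran from -0.22 to 0.093 with single libraries left out; that of Il18 turned without cKO 2, in a range of -0.020 to 0.71. A replicate block gave 5 members, 21 pathway genes and 2208 genes in all. Same-number correlations of residuals were -0.08, 0.28, 0.12 and 0.00, so the numbers were not taken as pairs. At these depths Il1a, Il1rl1 and Il1f5 were below the count filter, and without it Il1a (adjusted p = 0.247) and Il1rl1 (0.102) did not pass.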
